A study of Mus musculus with 6 samples.

Results

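The 85 genes described here encode the proteins of the cytosolic ribosome and their close paralogues in the mouse. They were chosen by gene symbol alone, as the Rpl, Rps and Rplp genes and Rpsa, from the 20280 genes of a table that compared Tip55Δ/Δ with Tip55+/+ embryos. Of these genes, 52 belong to the large subunit and 33 to the small subunit. By a list written for this comparison, 77 are the usual genes of the ribosome and 8 are paralogues of them. Kinases of ribosomal protein S6 and rows with a pseudogene symbol were left out of the 85.

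RNA-seq was made from whole FVB/N embryos at E8.5, with 3 wildtype (Tip55+/+) and 3 Tip55 knockout (Tip55Δ/Δ) libraries. Tip55 is one isoform of Kat5, which encodes a lysine acetyltransferase of the TIP60-P400 complex. The germline knockout allele lacks the introns near the end of Kat5 that hold the sequence particular to Tip55, and the other isoforms remain. Knockout embryos are homozygous and come from crosses of heterozygotes, and the sources used here do not state whether a library is 1 embryo or a pool. The libraries do not part the strands.

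A ribosome has a small subunit, which reads the mRNA, and a large subunit, which joins amino acids into the chain. Most ribosomal proteins are part of every ribosome, and their genes are expressed together and at high levels in dividing cells such as those of the early embryo. Their mRNAs start with a run of pyrimidines, the 5′ terminal oligopyrimidine (TOP) motif, which couples their translation to growth signals. Heterozygous loss of some of these genes causes Diamond-Blackfan anaemia, a failure of red cell formation in humans.

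The deposited table holds 1 comparison per gene, not values of single libraries. The mean normalized count of a gene in each genotype was solved from 2 ratios of that gene, as described with the processing, and for the 85 genes the rounding error was at most 1.02%. A value below is thus a genotype's mean over 3 libraries, and each difference is between those 2 means, with no replicate spread and no test. Ratios are Tip55Δ/Δ over Tip55+/+. Intervals are at 95% and binomial (Clopper-Pearson). They were computed on each genotype's recovered mean normalized count times its 3 libraries, rounded, in place of summed read counts. They hold counting error alone and leave out how embryos vary, so an interval that leaves out 1 does not show that the genotypes differ.

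Over the whole table, the recovered means came to sums of 49138051 in Tip55+/+ and 47211544 in Tip55Δ/Δ embryos. Kat5 itself, counted over all its isoforms, had a mean of 2218 in Tip55+/+ and 1615 in Tip55Δ/Δ embryos, a ratio of 0.728 (interval 0.702 to 0.756). All 8 primitive erythroid markers were lower in Tip55Δ/Δ embryos, with ratios such as 0.0571 for Hbb-y and 0.0992 for Klf1, and their summed mean was 109805 in Tip55+/+ and 7797 in Tip55Δ/Δ embryos. Fewer cells of a type and less RNA per cell cannot be told apart in such whole-embryo libraries. Whether the lower erythroid signal had a part in the ribosomal protein values was not tested. Globins took 0.252% of all counts in Tip55+/+ and 0.0181% in Tip55Δ/Δ embryos, which is small beside the counts of the ribosomal protein genes.

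Ribosomal protein mRNAs were lower in Tip55Δ/Δ embryos, in both subunits and by a small amount. Of the 85 genes, 75 had a ratio under 1 and 10 a ratio over 1. The median log2 ratio was −0.18, against −0.04 over the 7782 genes of the table whose mean was 1000 or more normalized counts in either genotype. Of those genes 57.6% had a ratio under 1. Together the 85 genes had 3317399 normalized counts in Tip55+/+ and 2960605 in Tip55Δ/Δ embryos, or 6.75% and 6.27% of all counts. The ratio of these sums was 0.892 (interval 0.892 to 0.893), and for all other genes together it was 0.966.

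A gene was called lower when at least 20% lower and higher when at least 25% higher, which are the same fold. There were 16 lower and 2 higher genes by this count. Of the 18741 usable genes of the whole table, 16.6% were at least 20% lower and 20.2% at least 25% higher. Among the 7782 genes at 1000 or more, the shares were 11.5% lower and 4.23% higher. Of the 82 ribosomal protein genes with such a mean, 15 (18.3%) were lower by that fold and 0 higher. Of 135 other genes with a mean of 10000 or more and a longest transcript under 2000 bases, a set chosen after the values were seen, 22.2% were at least 20% lower and 3.7% at least 25% higher. These 135 had a median log2 ratio of −0.12, and their ratio of sums was 0.911, so they too were lower in Tip55Δ/Δ embryos. They include the globin gene Hbb-y, with a log2 ratio of −4.13, and their values without globins were not computed. With the GC trend described below removed, the median of the 135 was −0.03, beside −0.13 for the 85 ribosomal protein genes. The gene nearest to the limit outside it was Rpl18, with a ratio of 0.803. The ratios of these 82 genes ran from 0.684 to 1.09. The plot of the ratios in order shows a graded series of small differences.

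**Figure D1:**
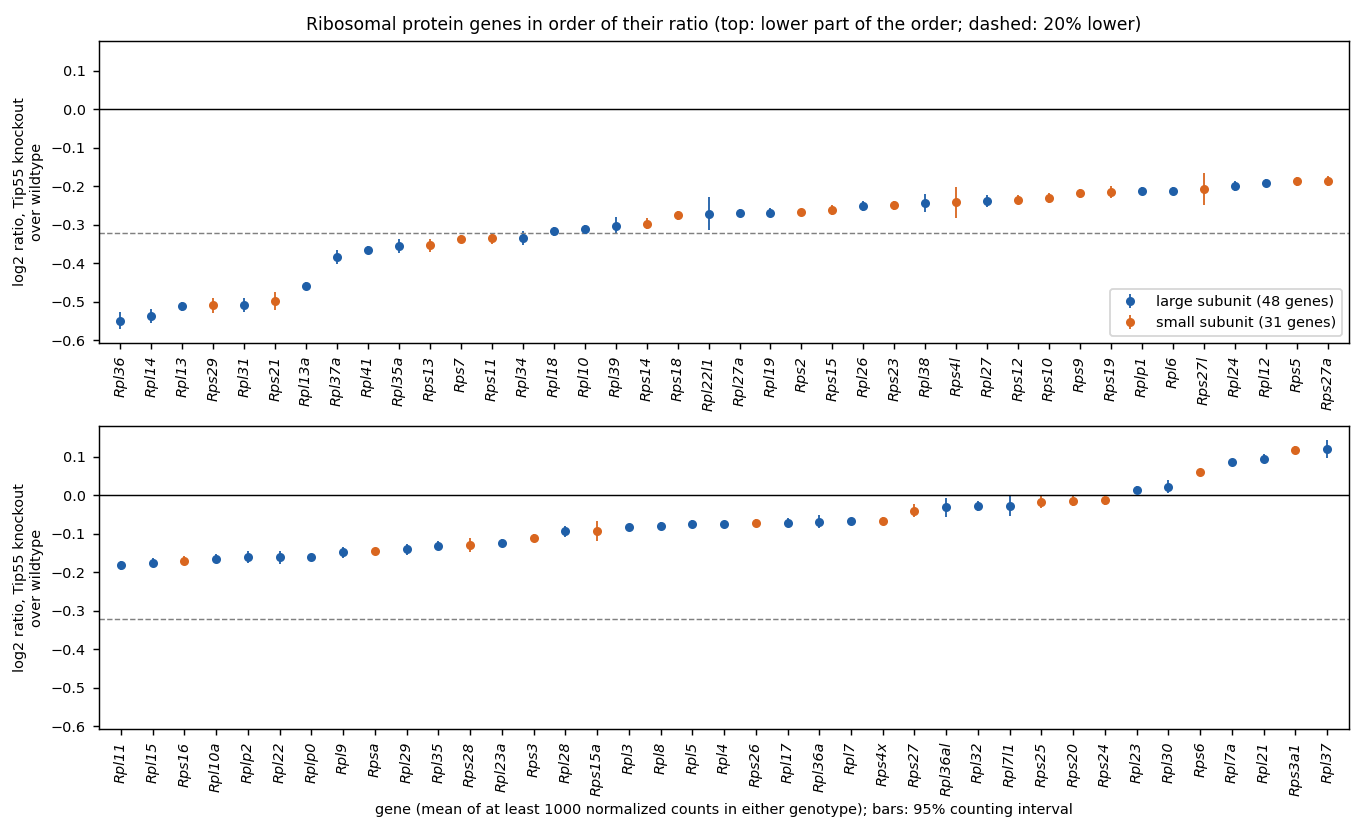
Log2 ratio of Tip55Δ/Δ over Tip55+/+ means (y axis) for 79 of the 82 ribosomal protein genes whose mean was 1000 or more normalized counts in either genotype, in rising order from the upper to the lower panel. Points are blue for the large and orange for the small subunit, bars are 95% intervals for counting error, the dashed line marks 20% lower. Of the 79 genes drawn, 72 lie under 0 and 7 over it, and both subunits are found along the whole order.

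The genes with the lowest ratios among the 82 came from both subunits. Rpl36, of the large subunit, had 13032 normalized counts in Tip55+/+ and 8908 in Tip55Δ/Δ embryos, a ratio of 0.684 (interval 0.673 to 0.694). It lies on chromosome 17 from 56613416 to 56614243 of GRCm38 on the plus strand. Rpl13, of the large subunit and host of the small nucleolar RNA Snord68, had 50000 and 35078 (ratio 0.702, interval 0.696 to 0.707). Rps29, a small zinc-binding protein of the small subunit and one of the anaemia genes, had 16621 and 11678 (ratio 0.703, interval 0.693 to 0.712). Rpl14 and Rpl31, of the large subunit, had 21361 and 14728 (ratio 0.689) and 18580 and 13069 (ratio 0.703). These last 2 genes share sequence with pseudogenes that are counted in the same table, and their ratios were closer to 1 once those were added, as given below. Rps21 and Rpl13a came next in the order, with log2 ratios of −0.50 and −0.46.

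The genes with the highest ratios lay close above 1. Rpl37, a small zinc-binding protein of the large subunit, had 9422 normalized counts in Tip55+/+ and 10236 in Tip55Δ/Δ embryos, a ratio of 1.09 (1.07 to 1.104). This value too depends on a pseudogene. Rps3a1, of the small subunit, had 55355 and 60054 (ratio 1.08, interval 1.08 to 1.09). Rpl21 had 36336 and 38803 (ratio 1.07), and Rpl7a, which hosts 3 small nucleolar RNA genes within its span, had 62026 and 65834 (ratio 1.06). Also over 1 were Rps6, the S6 kinase substrate, with a log2 ratio of 0.06, and Rpl30 and Rpl23 with 0.02 and 0.01.

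The start windows of these lowest and highest genes are shown to let the pyrimidine run be seen in the sequence. RefSeq's table of start windows (GRCm38.p6) held 6 of them, and Rpl36, Rps29 and Rpl21 are named only. Each line runs 5′ to 3′ on the gene's strand, from 30 bases before the annotated start to 20 bases from it on. Capitals mark a run of at least 5 C or T, read from a C that lies within 5 bases of the annotated start. C or T can also precede the capitals, as in Rpl14 and Rpl7a, where the pyrimidine stretch begins before the searched bases.
Rpl14 (chr9:120571487-120571536, plus strand): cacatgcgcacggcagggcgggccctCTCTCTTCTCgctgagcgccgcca
Rpl13 (chr8:123102320-123102369, plus strand): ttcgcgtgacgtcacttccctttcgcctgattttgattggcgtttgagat
Rpl31 (chr1:39367821-39367870, plus strand): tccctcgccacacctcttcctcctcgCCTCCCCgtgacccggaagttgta
Rpl37 (chr15:5116583-5116632, plus strand): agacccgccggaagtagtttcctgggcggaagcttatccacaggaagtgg
Rps3a1 (chr3:86142649-86142698, minus strand): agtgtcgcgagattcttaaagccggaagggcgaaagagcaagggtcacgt
Rpl7a (chr2:26910777-26910826, plus strand): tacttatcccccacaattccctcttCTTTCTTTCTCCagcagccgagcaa

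Such a run was found in Rpl14 and Rpl31 among the lowest genes and in Rpl7a among the highest, and not at the starts of Rpl13, Rpl37 and Rps3a1. The table held start windows for 64 of the 85 ribosomal protein genes, and 28 of them (43.8%) had a run, against 19.8% of 14658 genes of the comparison and 20.5% of the 5990 with a mean of at least 1000. In 12 of the 64 (18.8%) the annotated first base was itself a C that opened at least 5 C or T read from it on, whatever lay before it, against 2.42% and 2.54% of the same background sets. The search read the gene's strand only. The median log2 ratio was −0.24 for the 28 ribosomal protein genes with a run and −0.16 for those without, and for genes of the table at 1000 or more it was −0.04 both with and without a run. Pyrimidine stretches that opened farther from the annotated start, as in the window of Rpl13, were not counted.

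Genes of both subunits were lower in Tip55Δ/Δ embryos. Of the 52 large subunit genes, 44 had a ratio under 1, and of the 33 small subunit genes, 31. The median log2 ratio was −0.16 for the large and −0.21 for the small subunit. Over the usual genes only, without the 8 paralogues, the medians were −0.17 (46 genes, SD 0.17) and −0.19 (31 genes, SD 0.15), where the SD is over genes. At least 20% lower were 9 usual genes of the large and 6 of the small subunit. The summed counts gave ratios of 0.892 for the large and 0.893 for the small subunit. Scaled by the length of the longest transcript, the large subunit took 59.6% of the summed level in both genotypes. By coding length the share was 60.3% in Tip55+/+ and 60.0% in Tip55Δ/Δ embryos.

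**Figure D2:**
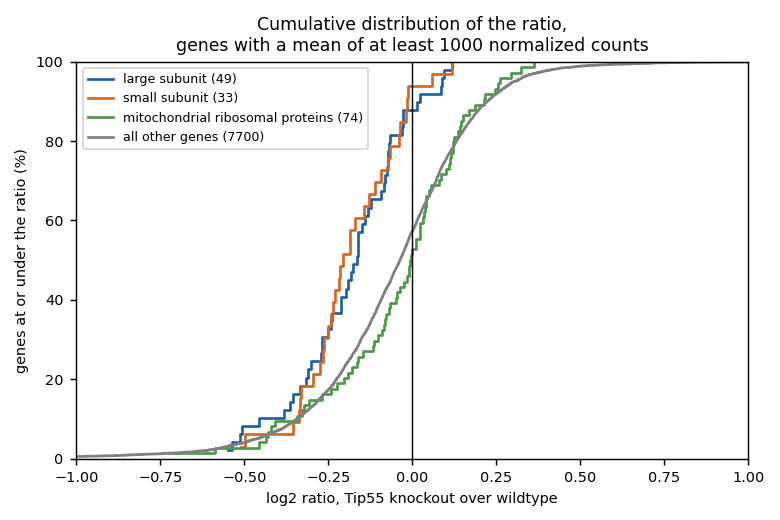
Share of genes (y axis, percent) at or under each log2 ratio (x axis), over genes whose mean was 1000 or more normalized counts in either genotype, for 49 large and 33 small subunit genes, 74 mitochondrial ribosomal protein genes and 7700 other genes. The curves of both cytosolic subunits run together and to the left of the other genes, and that of the mitochondrial ribosome runs near the other genes.

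The order of the genes by level was similar in both genotypes. Of the 100 genes of the table with the highest mean count, 25 were ribosomal protein genes, and of the 500 highest, 70. Per kilobase of the shortest principal transcript, the highest Tip55+/+ levels of the small subunit were those of Rps2, at 157148 normalized counts per kb in Tip55+/+ and 130698 in Tip55Δ/Δ embryos, Rps26, with 94217 and 89684, and Rpsa, the laminin receptor precursor, with 85648 and 77481. In Tip55Δ/Δ embryos Rps6, with 87835 per kb, was above Rpsa. In the large subunit the highest Tip55+/+ levels were those of Rpl41, which encodes a very short basic peptide, at 152291 and 118233 normalized counts per kb, Rpl23a at 101559 and 93264, and Rplp1 at 97362 and 84113. Over the 77 usual genes the highest level per kb was 20.5 times the lowest in Tip55+/+ embryos. The lowest, Rps20, has a principal transcript annotated at 3706 bases, which makes its level per kb low. Across these 77 genes the correlation of log2 levels per kb between the genotypes was 0.975, over points that share their transcript length, and it is given as a description.

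The P stalk is the part of the large subunit that recruits elongation factors, and its 3 genes were close to each other. Rplp0, the base of the stalk, had 125488 normalized counts in Tip55+/+ and 112275 in Tip55Δ/Δ embryos (ratio 0.895, interval 0.891 to 0.899). Rplp1 had 48584 and 41972 (ratio 0.864, interval 0.857 to 0.870), and Rplp2 had 23630 and 21130 (ratio 0.894, interval 0.885 to 0.904). All 3 were lower by less than 20%. With the GC trend described below removed, their median log2 ratio went from −0.16 to −0.05.

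Rpl5 and Rpl11 bind the 5S ribosomal RNA and, when ribosomes fail to assemble, the p53 regulator Mdm2. Rpl5 had 54763 normalized counts in Tip55+/+ and 51984 in Tip55Δ/Δ embryos (ratio 0.949, interval 0.943 to 0.956), and Rpl11 had 39245 and 34598 (ratio 0.882, interval 0.874 to 0.889). Both also belong to the 11 Diamond-Blackfan anaemia genes of the list used here. All 11 had a ratio under 1, with a median log2 ratio of −0.22, and 75 of all 85 genes had a ratio under 1. Of the 11, 3 were at least 20% lower, beside 18.3% of the 82 ribosomal protein genes at 1000 or more. These 3 were Rps29, given above, Rpl35a with 18893 and 14778 (ratio 0.782) and Rps7 with 52778 and 41793 (ratio 0.792). Rps19, the gene most often mutated in that anaemia, had 23285 and 20061 (ratio 0.862, interval 0.852 to 0.871). Rpl26 and Rps10 had ratios of 0.840 and 0.852. Rps26 and Rps24 had ratios of 0.952 and 0.991. With the GC trend removed the median of the 11 was −0.11, beside −0.13 for all 85 genes.

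Proteins that line the end of the tunnel through which the new chain leaves the large subunit were encoded by 7 listed genes. All 7 had a ratio under 1, with a median log2 ratio of −0.25, and 75 of all 85 genes had a ratio under 1. Rpl31 and Rpl39 were the lowest of the 7, with log2 ratios of −0.51 and −0.30, and Rpl23a and Rpl17 the highest, with −0.12 and −0.07. Rpl31 alone was at least 20% lower, and with its pseudogene copy added it was not.

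Rpl38, whose loss in mice changes the body plan through the translation of Hox mRNAs, had 11439 normalized counts in Tip55+/+ and 9667 in Tip55Δ/Δ embryos, a ratio of 0.845 (interval 0.832 to 0.858). With the GC trend removed its log2 ratio went from −0.24 to −0.02, or to −0.12 with the GC content of its shortest principal transcript. Of the 4 genes on the X chromosome, Rpl10 had 56408 and 45457 (ratio 0.806), Rpl39 had 12560 and 10187 (ratio 0.811), Rpl36a had 19029 and 18147 (ratio 0.954) and Rps4x had 53260 and 50863 (ratio 0.955). The 4 thus formed a lower and a higher pair, and none was at least 20% lower.

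The 8 paralogues differed from the usual genes mainly in level. Rpl39l and Rpl10l, known for expression in the testis, and Rpl3l, known for expression in striated muscle, had under 10 normalized counts in either genotype. Rpl39l had 8.72 in Tip55+/+ and 5.74 in Tip55Δ/Δ embryos (interval of the ratio 0.333 to 1.252), Rpl3l had 2.38 and 5.81 (0.957 to 6.93) and Rpl10l had 1.21 and 3.38 (0.721 to 10.9). Each of these intervals holds 1, so no difference was detectable at this depth, and the 2 genes at least 25% higher among the 85 were Rpl3l and Rpl10l. Rps4l, which the annotation lists as a processed pseudogene that is transcribed, had 3477 and 2941 (ratio 0.846, interval 0.822 to 0.870).

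The other 4 paralogues were expressed beside their partners. Rpl22l1 had 3351 normalized counts in Tip55+/+ and 2777 in Tip55Δ/Δ embryos (ratio 0.829), and its partner Rpl22 had 19920 and 17814 (ratio 0.894). Rpl22l1 gave 14.4% of the counts of the pair in Tip55+/+ (interval 14.1% to 14.7%) and 13.5% in Tip55Δ/Δ embryos (13.2% to 13.8%). Rps27l, a p53 target, had 3213 and 2784 (ratio 0.867) beside Rps27 with 20474 and 19915 (ratio 0.973), and its share went from 13.6% (13.3% to 13.8%) to 12.3% (12.0% to 12.5%). In both pairs the paralogue's share was the smaller in Tip55Δ/Δ embryos. The intervals of the genotypes did not overlap, but at this depth the counting interval of the ratio left out 1 for 63.5% of all usable genes.

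The shares of Rpl7l1 and Rpl36al were slightly larger in Tip55Δ/Δ embryos. Rpl7l1, a paralogue that acts in ribosome assembly, had 8028 and 7878 normalized counts (ratio 0.981) and gave 11.6% of the pair with Rpl7 in Tip55+/+ (11.46% to 11.74%) and 11.9% in Tip55Δ/Δ embryos (11.75% to 12.03%). Rpl7 itself had 61169 and 58371 (ratio 0.954). Rpl36al had 8255 and 8076 (ratio 0.978), and its share beside Rpl36a was 30.3% (29.9% to 30.6%) and 30.8% (30.5% to 31.1%), intervals that overlap. Rps4l gave 6.13% (6.01% to 6.24%) of its pair with Rps4x in Tip55+/+ and 5.47% (5.36% to 5.58%) in Tip55Δ/Δ embryos. Intervals of the genotypes were thus apart for 4 pairs. The paralogue's share was smaller in Tip55Δ/Δ embryos for Rpl22l1, Rps27l and Rps4l. It was larger for Rpl7l1, where the intervals nearly met. How often shares of other gene pairs have intervals apart was not computed. By another measure, the counting interval of the ratio left out 1 for 63.5% of all usable genes. Rpl39l, Rpl10l and Rpl3l each gave under 0.1% of their pairs in both genotypes. Paralogues of nearly the same sequence can share reads, and the effect of how RSEM divided such reads was not tested.

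**Figure D3:**
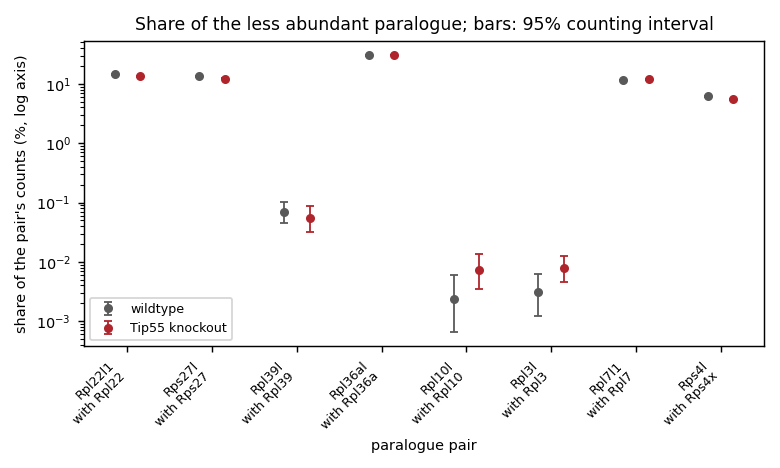
Share of a pair's counts (y axis, percent, log axis) given by the less abundant paralogue in Tip55+/+ (grey) and Tip55Δ/Δ (red) embryos for 8 pairs, with 95% intervals for counting error. Of these paralogues, 5 lie between 5.47% and 30.8% with small differences between genotypes, and the other 3 lie under 0.1%, where intervals overlap.

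Reads of these genes can also fall on pseudogenes, of which the ribosomal protein genes have many. In the GENCODE annotation, 70 of the 85 genes had at least 1 pseudogene transcript that was at least 95% identical over at least 300 bases, 558 such copies in all and 58 for Rpl21 alone. Only 10 of the copies, of 9 genes, were rows of the deposited table. For those 9 genes the counts of gene and copies were added, an addition chosen after the values were seen. The median log2 ratio of the 85 genes moved from −0.18 to −0.19, and 5 genes moved by over 0.05.

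Of these 5, 3 went from one end of the order to its middle or to the other end. Rpl14-ps1, 98.9% identical to Rpl14 over 656 bases, had 12664 normalized counts in Tip55+/+ and 16698 in Tip55Δ/Δ embryos, so it was higher where Rpl14 was lower. Gene and copy together had 34025 and 31426, a log2 ratio of −0.11 in place of −0.54 for Rpl14 alone. Rpl31-ps12 had 12959 and 14594, and with it Rpl31 went from −0.51 to −0.19. Gm13826, 99.7% identical to Rpl37 over 344 bases, had 12822 and 4796, and with it Rpl37 went from 0.12, the highest of the 82, to −0.57. The ranks of Rpl14, Rpl31 and Rpl37 in the order thus depend on which locus their reads were given to.

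Rps15a moved from −0.09 to −0.22 with Rps15a-ps4 (2595 and 2834) and Rps15a-ps6 (7892 and 5495), which together had more counts than the gene itself in Tip55+/+ embryos. Rpl22l1 moved from −0.27 to −0.39 with Gm15421 (638 and 269). For Rps19, Rps26, Rpl29 and Rpl32 the change was under 0.05. A further 8 genes of the table that are not pseudogenes carry such a stretch. Among them Wdr89, with 391 bases 99.5% identical to Rplp2, had 5741 normalized counts in Tip55+/+ and 2558 in Tip55Δ/Δ embryos. The counts of Rpl36, Rpl13 and Rps29, at the low end, were not changed by this addition. Rpl36 and Rpl13, however, have 7 and 8 annotated copies that are not rows of the table. For Rps29 the search found 0, but its coding sequence has 168 bases and a copy had to align over at least 300. A copy of the coding part alone could not be counted, so this 0 does not show that Rps29 has no copies.

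**Figure D4:**
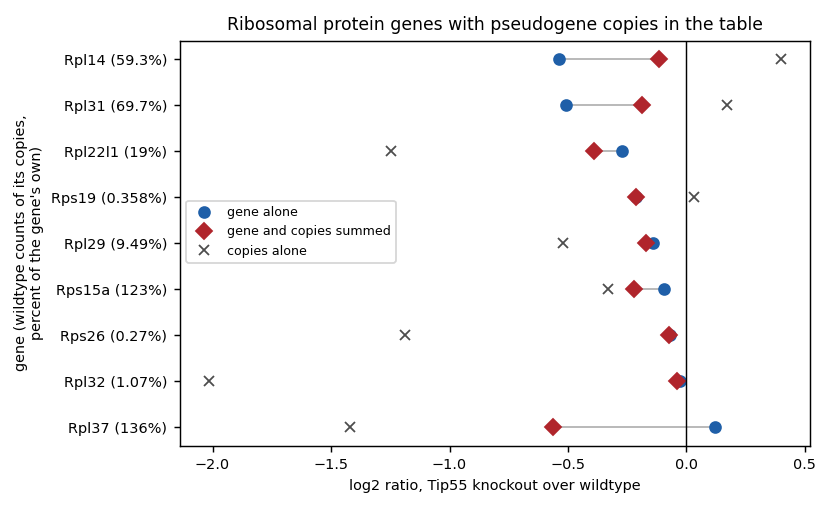
Log2 ratio of Tip55Δ/Δ over Tip55+/+ means (x axis) for the 9 ribosomal protein genes with a pseudogene copy in the table (y axis, with the Tip55+/+ counts of the copies as a percent of those of the gene), for the gene alone (circle), its copies (cross) and their sum (diamond). Rpl37 moves from 0.12 to −0.57, Rpl14 from −0.54 to −0.11 and Rpl31 from −0.51 to −0.19, and the others move by less.

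Ratios also went with base composition. Spearman's rho of the log2 ratio with the GC content of a gene's longest transcript was −0.39 over the 12304 genes whose mean was 100 or more, and −0.24 over the 82 ribosomal protein genes. Genes are not independent replicates, and both values are descriptions. The ribosomal protein genes had a median GC content of 50.9%, against 49.4% over all genes at 1000 or more. With a smooth curve of the ratio on GC content over all genes subtracted, the median log2 ratio went from −0.18 to −0.13 for the 85 genes, from −0.16 to −0.12 for the large and from −0.21 to −0.13 for the small subunit. Ratios under this curve were found for 68 genes and over it for 17. At least 20% lower were then 12 genes, 10 of them among the 16 given above. After this subtraction, the share of all genes under the curve and the share at least 20% lower were not computed. Over the 7782 genes at 1000 or more the median log2 ratio was then −0.02. Rpl36, with a GC content of 60.8%, went from −0.55 to −0.28, and Rps15 and Rps10 from −0.26 and −0.23 to 0.06 and 0.03. With the GC content of the shortest principal transcript in place of the longest, Rps15 and Rps10 stayed under 0, both at −0.10. With the longest transcript Rpl13, Rps29 and Rps21 kept log2 ratios of −0.45, −0.47 and −0.46. With the shortest principal transcript these genes had −0.37, −0.44 and −0.44. The part of base composition in the ratios of these genes was not tested beyond this subtraction.

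**Figure D5:**
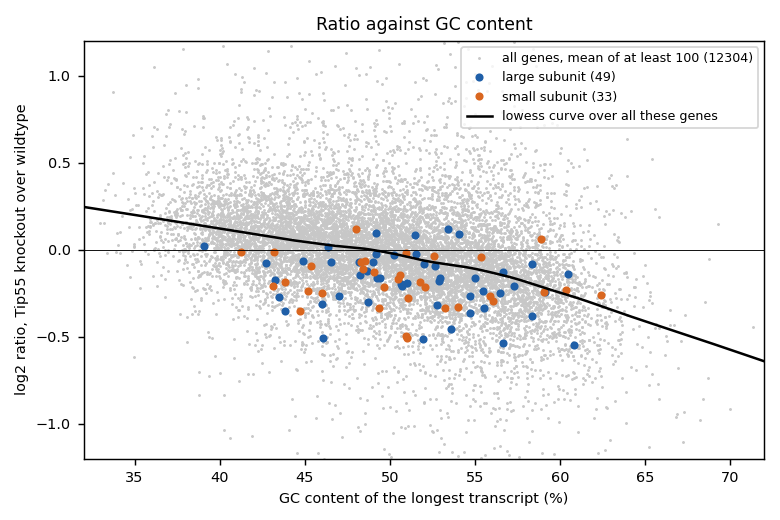
Log2 ratio of Tip55Δ/Δ over Tip55+/+ means (y axis) against the GC content of the longest transcript (x axis, percent) for 12304 genes whose mean was 100 or more normalized counts (grey), with their lowess curve (black), and for the large (blue, 49 genes) and small (orange, 33 genes) subunit. Most of the blue and orange points lie under the curve, and of all 85 genes 17 lie over it. The share of all genes under the curve was not computed.

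Among the ribosomal protein genes, ratios also went with length, a pattern seen after the values were known. The 82 genes were divided into 3 classes by the length of the shortest principal transcript. The median log2 ratio was −0.23 for the 28 genes of 271 to 577 bases, −0.20 for the 27 of 583 to 851 and −0.08 for the 27 of 860 to 3706. In these classes 8, 4 and 3 genes were at least 20% lower, or 8, 5 and 2 with pseudogene copies added. The share of all genes of each class that was at least 20% lower was not computed. Other genes of the same lengths and a mean of at least 1000 had medians of −0.06 (117 genes), −0.07 (221) and −0.04 (4373). Spearman's rho over the 82 genes was 0.35 with this length and −0.38 with the GC content of the same transcript. Over the 12304 genes whose mean was 100 or more, rho with the length of the longest transcript was 0.05. These transcript features are linked to each other, and their parts were not separated.

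The spans of 30 of the 85 genes hold, on the same strand, small nucleolar RNA genes, whose products guide the modification of ribosomal RNA. The median log2 ratio was −0.13 for these 30 and −0.20 for the other 55, and with the GC trend removed it was −0.12 and −0.13. The hosts included 7 of the 10 genes with a ratio over 1, among them Rpl37, Rps3a1, Rpl21 and Rpl7a. Rpl13 and Rpl13a, at the low end, are hosts too.

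A protein made as a fusion with a relative of ubiquitin was outside the symbol rule but belongs to the ribosome. Fau, which encodes the small subunit protein RPS30, had 22946 normalized counts in Tip55+/+ and 15365 in Tip55Δ/Δ embryos, a ratio of 0.670 (interval 0.662 to 0.678), lower than that of any of the 82 genes. Its log2 ratio was −0.58, or −0.33 with the GC trend removed, and several of the 82, such as Rpl31 and Rps29, were then lower. Rps27a, the ubiquitin fusion among the 85, had 30740 and 27026 (ratio 0.879). Gnb2l1, whose product RACK1 sits on the small subunit, had 59354 and 55357 (ratio 0.933).

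Other genes of translation and of ribosome assembly, in lists written with earlier results known, stood nearer to 0. Of 11 translation factor genes whose mRNAs carry a TOP motif, 7 had a ratio under 1 and 4 over it, with a median log2 ratio of −0.03 and 0 that were 20% lower or 25% higher. The lowest were Eif3f (−0.31) and Eef1g (−0.29) and the highest Pabpc1 (0.07) and Eif3e (0.22). Of 18 other initiation factor genes, 7 were under 1 and 11 over it, with a median of 0.03 and extremes of Eif3g (−0.19) and Eif4a1 (−0.19) below and Eif2s2 (0.16) and Eif4g2 (0.17) above. The ribosomal protein genes thus had a lower median than either list of factors, and no test of that difference could be made.

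Genes that make and modify ribosomal RNA were spread about 0. Of 14 RNA polymerase I genes, 8 were under 1 and 6 over it (median log2 ratio −0.04). Ubtf, the upstream binding factor of that polymerase, had 10053 normalized counts in Tip55+/+ and 7601 in Tip55Δ/Δ embryos (ratio 0.756) and was the only one at least 20% lower. Polr1b followed with −0.27, and Taf1b and Twistnb were highest with 0.26 and 0.28. Of 8 genes of small nucleolar RNA particles the median was 0.01, from Nhp2 (−0.15) and Nop10 (−0.12) to Fbl (0.09) and Nop58 (0.16).

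Assembly factor genes had medians of 0.01 (20 genes, large subunit) and −0.02 (22 genes, small subunit). For the large subunit the lowest were Bop1 (−0.30) and Nle1 (−0.28) and the highest Nsa2 (0.29) and Nip7, which had 5122 normalized counts in Tip55+/+ and 7453 in Tip55Δ/Δ embryos (ratio 1.46). For the small subunit they were Bysl, with 5632 and 4384 (ratio 0.778), and Nob1 (−0.17) at the low end, and Ltv1 (0.19) and Bms1 (0.27) at the high end. Abundant nucleolar proteins had a median of 0.05 over 5 genes. Tcof1 (−0.18) and Nolc1 (−0.02) were the lowest, and Npm1 and Ncl had 0.29 and 0.22. Npm1 went from 182900 to 223776 normalized counts. Myc proteins, with their partner Max, drive ribosome production. Myc had 4648 and 5723 (ratio 1.23, interval 1.204 to 1.26) and Mycn 9232 and 12113 (ratio 1.31, interval 1.29 to 1.33), while Mycl and Max had log2 ratios of −0.19 and −0.07.

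The mitochondrial ribosome has its own proteins, encoded by 77 genes of the table. Of these, 42 had a ratio under 1 and 35 over it, with a median log2 ratio of −0.01, and 11 were at least 20% lower and 2 higher. Mrpl34 (−0.72) and Mrps12 (−0.59) were lowest, and Mrpl48 (0.32) and Mrpl1 (0.36) highest. Their ratios spread wider than those of the 82 cytosolic genes, and on both sides of 1.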

How the data were processed

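RNA from E8.5 embryos was enriched for mRNA and sequenced in the BGI-seq format, and the authors mapped reads to mm10, counted with RSEM and compared the genotypes by EBSeq. The deposited table holds, per gene, the ratio of the genotype means with 0.01 added to each, a second ratio with a larger constant, and posterior probabilities of equal and differential expression. The probabilities were not used and the ratios are not reported as such. The 2 ratios were solved for the 2 genotype means. The second constant, 0.5141 normalized counts, came from 565 genes at 0 in wildtype and 613 at 0 in knockout embryos. The rounding error of a member's mean was at most 1.02%. It was over 5% for 8 genes, which were left out, and 18741 genes were usable, as genes above the floor of 3 summed counts in either genotype. Depth per library is not given in the sources used here.

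Members and lists were chosen with earlier results of these data known. Named with values are the 5 lowest and 5 highest members with a mean of at least 1000, paralogue pairs, P stalk, Rpl5, Rpl11, anaemia genes, Rpl38, X-linked members, the 3 highest per kb in each subunit and the 2 lowest and 2 highest of the other lists. Some genes that this rule names are not reported here, and 3 members are not drawn in the plot of ratios in order. Others, such as Rps21 and Rpl13a, were named after their values were seen. Symbols were matched to GENCODE vM21 (19981 of 20280, 691 through older symbols). Copies were found with BLAST 2.17.0 and trends by lowess in statsmodels 0.14.6 (span 0.3). The recovery was tested on simulated data. Alternatives were the trends, centring, an added count, filters on the mean, other folds, other lengths and other member sets.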

Additional observations from a re-analysis of the deposited data

How the results depend on the processing

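No paired analysis was possible because the table holds no values of single libraries, and for the same reason no library could be left out. The medians of all, large and small subunit genes stayed under 0 in every alternative. They were −0.13, −0.12 and −0.13 with the GC trend removed, −0.14, −0.12 and −0.14 with the GC and length trends removed, and −0.16, −0.14 and −0.18 when centred on genes with a mean of at least 100. With the GC content of the shortest principal transcript (chosen after seeing the data) they were −0.13, −0.12 and −0.13, and with its GC content and length −0.13, −0.13 and −0.14. The small subunit median was −0.19 over usual genes only. Leaving out each gene in turn gave medians from −0.184 to −0.178 for all genes, −0.17 to −0.16 for the large and −0.21 to −0.20 for the small subunit. The 16 genes at least 20% lower became 10 with the GC content of the principal transcript, 52 at 1.1-fold, 1 at 1.5-fold and 0 at 2-fold. The 1 gene at 1.5-fold was Rpl39l, whose mean was under 10 normalized counts in both genotypes and whose interval holds 1. The shares of all genes at these other folds, or after that subtraction, were not computed, so these counts have no background beside them. The 2 higher genes became 0 over usual genes and with a mean of at least 10 or 1000. With the globins left out of the total the members' share was 6.77% in Tip55+/+ embryos. The large subunit's share of the length-scaled level was 60.3% and 60.0% by coding length and 58.7% and 58.6% by principal transcript, for Tip55+/+ and Tip55Δ/Δ embryos. Per kilobase, the shares of Rpl22l1 were 12.6% and 11.8%, of Rps27l 9.79% and 8.82%, of Rpl36al 28.5% and 29.0%, of Rpl7l1 10.4% and 10.7% and of Rps4l 7.46% and 6.67%, each in the same direction as without it. For the 3 genes of the 85 with means under 10 normalized counts the intervals hold 1. Depth is otherwise not the limit here. The spread between libraries is unknown, and values of some genes also depended on pseudogene copies and on the GC trend, as given above.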
